A study of Homo sapiens with 6 samples.

Results

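Transcripts of glucose uptake, glycolysis and the hypoxia response were followed in SU-DHL-8, an established line of human diffuse large B-cell lymphoma, after exposure to beta-sitosterol. The members were 44 genes chosen by symbol, of 65746 genes in the deposited count table, and each of the 44 symbols was found. They comprise 4 carriers of glucose and lactate, 17 glycolytic enzymes, 6 genes that set fructose 2,6-bisphosphate or pyruvate dehydrogenase, 7 genes of the hypoxia-inducible factor (HIF) and its oxygen sensors, and 10 hypoxia target genes. Treated cells received 15 µM beta-sitosterol, a plant sterol close in structure to cholesterol, for 24 h. Control cells received the solvent DMSO for the same time. Both groups are the same line, labelled wild type and grown with serum at 5% CO2, and each has 3 libraries labelled as replicates. All results therefore come from 1 line, and no label names reduced oxygen or a change in glucose.

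Glycolysis splits glucose into pyruvate in the cytosol. Hexokinase traps glucose that enters through the SLC2A carriers, phosphofructokinase commits it to the pathway, and PFKFB enzymes make or remove the sugar phosphate that activates phosphofructokinase. Lactate dehydrogenase converts pyruvate to lactate, which leaves through SLC16A carriers, whereas pyruvate dehydrogenase sends pyruvate to mitochondrial oxidation unless a PDK kinase switches it off. HIF, a pair of the proteins HIF1A and ARNT, turns on many of these genes when oxygen is low. In oxygen, EGLN hydroxylases mark HIF1A for binding by VHL and destruction, so HIF1A is set mainly at the level of protein, which RNA counts do not show. Dividing lymphoma cells use glycolysis heavily, and MYC drives several of the same genes.

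Libraries held 26453101 to 29359951 counts in beta-sitosterol cells and 31314104 to 35565163 in DMSO cells. Levels are given as CPM, counts scaled to a common library total with TMM factors, and comparisons between genes use TPM, which is per transcript length. Counts were tested with edgeR's quasi-likelihood test over 11525 genes with Benjamini-Hochberg adjustment, and a gene is called at an adjusted p under 0.05. Every fold change is a log2 value, beta-sitosterol over DMSO, with its SE after the ± sign. In bulk libraries, fewer cells that express a gene and less RNA per cell cannot be told apart. Across genes, log2 CPM of the beta-sitosterol libraries correlated at 0.994, whereas DMSO replicate 2 stood apart, at 0.982 and 0.972 against DMSO replicates 1 and 3. All 8 B cell markers were above 1 CPM, with a summed level of 5418 to 5712 CPM in beta-sitosterol cells and 4886 to 5802 CPM in DMSO cells. T cell, stromal, epithelial and erythroid markers each summed to at most 1.99 CPM in any library, with CD3E, CD3G, CD2, DCN, HBB and HBA2 at 0, and 6 monocyte markers to at most 8.40 CPM. Positions of genes follow RefSeq's GRCh38.p14 annotation.

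HK2, PFKP, PFKFB3, PFKFB4, PGAM1 and LDHA fell, as did the glucose carrier SLC2A1 and the HIF subunit ARNT. ALDOC, SLC2A3, MXD1, P4HA1 and the trace transcript ENO2 rose. TPI1, ENO1, LDHB and VEGFA rose on CPM but were not above 0 on log2(TPM + 1) without DMSO replicate 2. The median of all genes was -0.36 on that scale. Only HK2, PFKP, PFKFB4 and MXD1 kept their call in all 17 alternatives tried. Leaving out any 1 beta-sitosterol library ended the calls of SLC2A1, PGAM1, ARNT, TPI1 and ENO1. Of the 44 members, 41 had enough counts to be tested and 17 were called, 9 higher and 8 lower. That is 41.5% of the tested members, against a background of 40.8% of all 11525 genes (19.0% higher, 21.8% lower), so the members were called about as often as other genes. Their median log2 fold change was -0.024, against -0.039 for all tested genes. The groups did not overlap for 23 of the 41 tested members, against 56.1% of all tested genes: 13 had all beta-sitosterol values above the DMSO values (27.0% of all tested genes) and 10 had all below (29.1%). CA9, ADM and P4HA2 were not tested. CA9 had 0, 2 and 4 counts in beta-sitosterol replicates 1 to 3 and 0 in each DMSO library, and ADM and P4HA2 had at most 2 counts in any library.

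More members were called without DMSO replicate 2, and fewer without beta-sitosterol replicate 1, 2 or 3 (7, 5 and 4 higher, 5 lower each time). In those last fits calls over all tested genes fell too, from 4697 of 11525 to 3127 of 11765, 3094 of 11786 and 3161 of 11742. Among the 3 DMSO libraries, replicate 2 held the lowest value for 27 of 41 tested members (65.9%), against 41.5% of all tested genes. Without it, all 17 called members were called in the same direction, and a further 14 passed the threshold, 5 higher and 9 lower. The resulting 31 calls are 75.6% of the tested members (14 higher, 17 lower), against a background of 56.6% (26.4% higher, 30.3% lower) in that fit. On log2(TPM + 1) with all libraries, 5 of the 17 kept their call with limma (HK2, PFKP, PFKFB4, ARNT and MXD1) and 12 missed the threshold. Over all 11525 tested genes 2939 were called on that scale (713 higher, 2226 lower), against 4697 on CPM. The deposited TPM of the listed genes sum to less in DMSO replicate 2 than in any other library. On log2(TPM + 1) with DMSO replicates 1 and 3 alone, the median of all genes lay at -0.36. On that scale TPI1, ENO1, LDHB and VEGFA stood at -0.037, -0.15, -0.073 and -0.0025, each above the median of all genes. All 17 called members kept their side of the median of all genes, taken on each of 3 scales. These were CPM, log2(TPM + 1), and log2(TPM + 1) with those DMSO libraries alone. TPM differed from counts by nearly a constant per gene and per library (largest deviation 0.026% over 10066 genes). Before the 1 is added, a change of scale therefore moves genes almost together, and keeping sides is not separate evidence for the calls. Adding 1 shrinks the differences of genes with low TPM. Relative to the median of all genes, ENO2 stood at 2.83 on CPM and 0.32 on log2(TPM + 1). PFKFB4 stood at -1.89 and -0.77, whereas HK2 stood at -1.01 and -1.07.

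**Figure D1:**
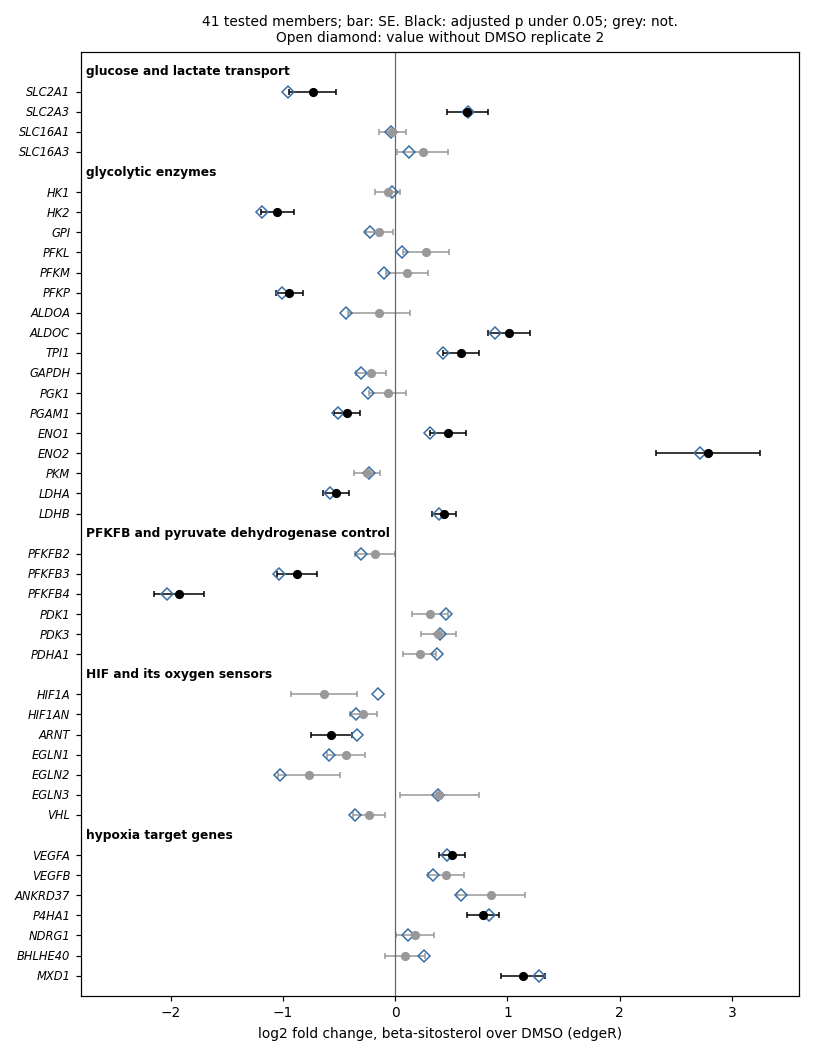
Log2 fold change of the 41 tested members, beta-sitosterol over DMSO, with its standard error (horizontal axis, edgeR), grouped by role. Black points passed an adjusted p of 0.05 and grey ones did not, and open diamonds give the value without DMSO replicate 2; PFKFB4 lies farthest to the left at -1.93 and ENO2 farthest to the right at 2.79.

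Of the 4 carriers, the glucose carriers SLC2A1 and SLC2A3 were called in opposite directions. SLC2A1 (ENSG00000117394, chromosome 1, 42925353 to 42958868), which encodes GLUT1, stood at 86.9, 85.2 and 88.5 CPM in beta-sitosterol replicates 1, 2 and 3, against 148, 98.7 and 186 CPM in DMSO replicates 1, 2 and 3. All treated libraries lay below all DMSO libraries, of which DMSO replicate 2 was the nearest (log2 fold change -0.73 ± 0.21, edgeR adjusted p = 0.0232). SLC2A3, which encodes the high-affinity carrier GLUT3, stood at 5.19, 6.74 and 5.82 CPM in beta-sitosterol cells and 4.11, 3.83 and 3.41 CPM in DMSO cells. Here all treated libraries lay above all DMSO libraries (log2 fold change 0.64 ± 0.18, edgeR adjusted p = 0.0209). Per length SLC2A3 remained the minor carrier, with 1.44 ± 0.18 TPM in beta-sitosterol cells and 1.12 ± 0.28 TPM in DMSO cells (SD, n = 3 each). SLC2A1 had 32.3 ± 0.60 TPM in beta-sitosterol cells and 68.4 ± 32.5 TPM in DMSO cells.

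The balance of these carriers can be read within each library, where scaling cancels. The log2 ratio of SLC2A1 to SLC2A3 counts was 4.06, 3.66 and 3.93 in beta-sitosterol cells and 5.17, 4.69 and 5.77 in DMSO cells. The groups did not overlap, and the difference was -1.33 ± 0.34 (SE), with an exact two-sided permutation p of 0.1, the smallest that 3 against 3 libraries allow. Leaving out libraries ended both calls on the genes themselves. SLC2A1 missed the threshold without DMSO replicate 1 or 3 (edgeR adjusted p = 0.075 and 0.056) or without beta-sitosterol replicate 1, 2 or 3 (0.0787, 0.0786 and 0.0728). SLC2A3 missed it without beta-sitosterol replicate 2 or 3 (edgeR adjusted p = 0.106 and 0.0676).

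The lactate carriers were not called. SLC16A1, which encodes MCT1 and had the higher TPM of the pair, stood at 178, 184 and 175 CPM in beta-sitosterol cells and 203, 179 and 164 CPM in DMSO cells, with overlap (log2 fold change -0.024 ± 0.12, edgeR adjusted p = 0.887). SLC16A3, which encodes the HIF-inducible exporter MCT4, was low in every library, at 3.02, 2.31 and 2.87 CPM in beta-sitosterol cells and 2.202, 1.91 and 2.8 CPM in DMSO cells (log2 fold change 0.25 ± 0.23, edgeR adjusted p = 0.415).

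Of the 17 enzymes 5 were called higher and 4 lower (52.9%, against 40.8% of all tested genes), and 5 and 9 without DMSO replicate 2 (82.4%, against 56.6%). Hexokinase carries out the opening reaction of the pathway, and HK2 (ENSG00000159399, chromosome 2, 74834127 to 74893359) is its inducible isoform in tumours. HK2 stood at 99.6, 99.2 and 96.2 CPM in beta-sitosterol cells, against 210.1, 166 and 235 CPM in DMSO cells. The treated libraries were close to each other and lay well below each DMSO library (log2 fold change -1.05 ± 0.14, edgeR adjusted p = 9.39e-04). HK1, the constitutive isoform, overlapped between groups, at 55.5, 56.6 and 59.7 CPM in beta-sitosterol cells and 56.2, 63.7 and 59.95 CPM in DMSO cells (log2 fold change -0.066 ± 0.11, edgeR adjusted p = 0.664). HK2 was the larger of the pair per length in every library, with a TPM share of 84.5%, 84.2% and 83.03% in beta-sitosterol cells and 91.9%, 88.8% and 92.2% in DMSO cells. The log2 ratio of HK2 to HK1 counts was 0.84, 0.81 and 0.69 in beta-sitosterol cells and 1.90, 1.38 and 1.97 in DMSO cells. The difference was -0.97 ± 0.19 (SE), without overlap (exact permutation p = 0.1, the smallest possible).

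Phosphofructokinase is built from the subunits PFKP, PFKL and PFKM, named for platelet, liver and muscle. PFKP (ENSG00000067057, chromosome 10, 3067548 to 3136805) stood at 259, 262 and 275 CPM in beta-sitosterol cells and 483, 464 and 581 CPM in DMSO cells. Each treated library was far below each DMSO library (log2 fold change -0.94 ± 0.12, edgeR adjusted p = 7.27e-04). PFKP had the highest TPM of the subunits in all 6 libraries, but its share of their TPM was 49.1%, 50.5% and 50.6% in beta-sitosterol cells, against 66.9%, 74.7% and 67.1% in DMSO cells. PFKL overlapped between groups, at 454, 425 and 449 CPM in beta-sitosterol cells and 373, 249.8 and 472 CPM in DMSO cells (log2 fold change 0.28 ± 0.21, edgeR adjusted p = 0.311). Without DMSO replicate 3 it was called higher (edgeR adjusted p = 0.0337). On log2(TPM + 1) without DMSO replicate 2 it was -0.39, where the median of all genes was -0.36. PFKM likewise overlapped, at 338, 340.1 and 348 CPM in beta-sitosterol cells and 351, 225 and 376 CPM in DMSO cells (edgeR adjusted p = 0.668). GPI, the isomerase between hexokinase and phosphofructokinase, stood at 472, 474 and 497 CPM in beta-sitosterol cells and 524, 470.3 and 594 CPM in DMSO cells (log2 fold change -0.14 ± 0.12, edgeR adjusted p = 0.377). Without DMSO replicate 2 GPI was called lower, at -0.22 (edgeR adjusted p = 0.0284).

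**Figure D2:**
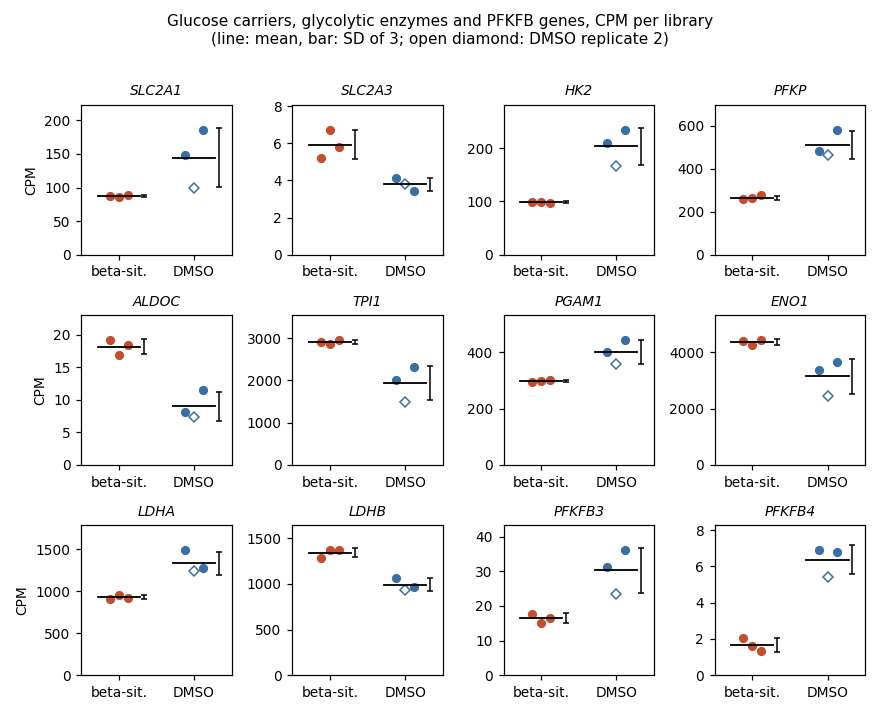
CPM (vertical axes, from 0) of 12 carriers, enzymes and PFKFB genes in each library, beta-sitosterol left and DMSO right, with the mean as a line and the SD of 3 libraries as a bar. Treated values lie outside the DMSO range in each panel, below it for SLC2A1, HK2, PFKP, PGAM1, LDHA, PFKFB3 and PFKFB4 and above it for SLC2A3, ALDOC, TPI1, ENO1 and LDHB. On log2(TPM + 1) without DMSO replicate 2 the differences of TPI1, ENO1 and LDHB are negative, but above the median of all genes.

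In the middle of the pathway the aldolase isoform ALDOC rose. It stood at 19.2, 16.9 and 18.5 CPM in beta-sitosterol cells and 8.13, 7.37 and 11.5 CPM in DMSO cells, without overlap (log2 fold change 1.02 ± 0.19, edgeR adjusted p = 0.00336). ALDOA, the main aldolase of most cells, had only 408, 352 and 395 counts in beta-sitosterol libraries and 589, 272 and 692 in DMSO libraries. In GENCODE v29, 42.3% of the exonic bases of ALDOA lie also in a gene on the same strand, ENSG00000285043, which is listed at 0, so how reads of the shared exons were assigned is uncertain. ALDOA was not called with all libraries (log2 fold change -0.14 ± 0.28, edgeR adjusted p = 0.706) and was called lower without DMSO replicate 2, at -0.43 (edgeR adjusted p = 0.00935). TPI1, triose phosphate isomerase, stood at 2898, 2856 and 2960.5 CPM in beta-sitosterol cells and 1999, 1496 and 2309.8 CPM in DMSO cells, without overlap (log2 fold change 0.59 ± 0.16, edgeR adjusted p = 0.0204). The TPI1 call was lost without DMSO replicate 1 (edgeR adjusted p = 0.0585) or without beta-sitosterol replicate 1, 2 or 3 (0.0694, 0.0646 and 0.072).

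GAPDH, the oxidising enzyme that follows, had the highest TPM of the members in each library. It stood at 5755, 5337 and 5501 CPM in beta-sitosterol cells and 6289, 5602 and 7352 CPM in DMSO cells. The groups overlapped through DMSO replicate 2 (log2 fold change -0.21 ± 0.13, edgeR adjusted p = 0.231), and without that library GAPDH was called lower at -0.31 (edgeR adjusted p = 0.00321). PGK1, an ATP-forming kinase, stood at 540.4, 571 and 569 CPM in beta-sitosterol cells and 635, 439.7 and 682 CPM in DMSO cells (edgeR adjusted p = 0.776). Here too DMSO replicate 2 was low, and without it PGK1 was called lower at -0.24 (edgeR adjusted p = 0.0148). PGAM1, phosphoglycerate mutase, stood at 295, 298 and 301 CPM in beta-sitosterol cells and 399.5, 358 and 444 CPM in DMSO cells, without overlap (log2 fold change -0.43 ± 0.12, edgeR adjusted p = 0.0185). That call was lost without beta-sitosterol replicate 1, 2 or 3 (edgeR adjusted p = 0.086, 0.0872 and 0.0789). PGAM1, GAPDH, PGK1, TPI1, ENO1, LDHA and LDHB have processed pseudogenes, and the sources used here do not say how reads that map to several places were counted, so their levels are uncertain by what those copies share.

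Enolase makes the last intermediate before pyruvate. ENO1, its main isoform, stood at 4380.3, 4254 and 4439 CPM in beta-sitosterol cells and 3354, 2436 and 3639.5 CPM in DMSO cells, without overlap (log2 fold change 0.47 ± 0.16, edgeR adjusted p = 0.0434). The call was lost without DMSO replicate 1 (edgeR adjusted p = 0.0797) or without beta-sitosterol replicate 1, 2 or 3 (0.123, 0.109 and 0.126). ENO2, the neuronal isoform, was a trace transcript, with 15, 16 and 11 counts in beta-sitosterol libraries and 2, 2 and 3 in DMSO libraries. Its summed rate was 7.2 times as high in beta-sitosterol as in DMSO cells (exact 95% interval 3.21 to 19, counting error only). ENO2 was called higher (edgeR adjusted p = 0.00208), but it passed the filter on low counts only through the treated group, so it had to differ to be tested at all. PKM, pyruvate kinase, stood at 2029.8, 2019 and 2084 CPM in beta-sitosterol cells and 2195, 2509 and 2588 CPM in DMSO cells. The groups did not overlap, yet PKM was not called with all libraries (log2 fold change -0.25 ± 0.11, edgeR adjusted p = 0.112); without DMSO replicate 2 it was called lower at -0.23 (edgeR adjusted p = 0.0213).

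Lactate dehydrogenase had the most even difference of the 6 paralog ratios compared. LDHA (ENSG00000134333, chromosome 11, 18394563 to 18408425), whose subunit favours the making of lactate, stood at 910, 956 and 920.2 CPM in beta-sitosterol cells and 1491, 1238 and 1274 CPM in DMSO cells. LDHB (ENSG00000111716, chromosome 12, 21635342 to 21657842), whose subunit favours its use, stood at 1288, 1371 and 1369.9 CPM in beta-sitosterol cells and 1068, 937 and 970.4 CPM in DMSO cells. Neither gene overlapped between groups, with a log2 fold change -0.52 ± 0.12 for LDHA and 0.44 ± 0.11 for LDHB (edgeR adjusted p = 0.00782 and 0.0131). The LDHB call was lost without beta-sitosterol replicate 2 or 3 (edgeR adjusted p = 0.076 and 0.0689), and 33.4% of its exonic bases overlap another annotated gene on the same strand. Within each library, where scaling cancels, the log2 ratio of LDHA to LDHB counts was -0.50, -0.52 and -0.57 in beta-sitosterol cells and 0.48, 0.40 and 0.39 in DMSO cells. The LDHA count was thus below the LDHB count in every treated library and above it in every DMSO library. The difference in log2 ratio was -0.96 ± 0.036 (SE; exact permutation p = 0.1, the smallest possible), and between -0.97 and -0.93 when any library was left out. Per length, LDHA made up 16.3%, 16.1% and 15.6% of the TPM of the pair in beta-sitosterol cells, against 27.8%, 26.7% and 26.6% in DMSO cells, so LDHB had the higher TPM in all 6 libraries.

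**Figure D3:**
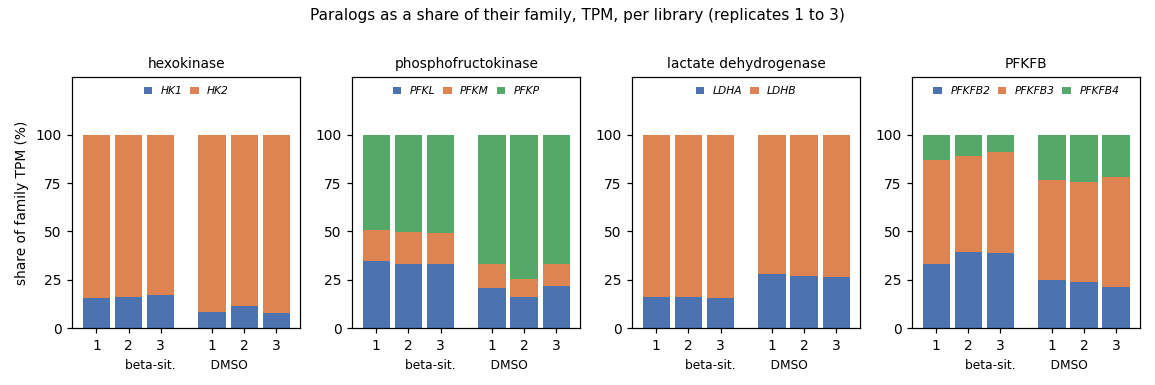
Share of each paralog in the TPM of its family (vertical axis, percent), a bar per library, beta-sitosterol left and DMSO right. The LDHA share lies between 15.6% and 16.3% in beta-sitosterol cells and between 26.6% and 27.8% in DMSO cells, and the PFKP share between 49.1% and 50.6% in beta-sitosterol cells and between 66.9% and 74.7% in DMSO cells.

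The sequences upstream of 4 called genes are shown because HIF and MYC both read motifs that hold ACGTG: the hexokinase and PFKFB genes that fell in every alternative tried, and the lactate dehydrogenase pair that moved apart. They are the 250 bases before a start listed in RefSeq on GRCh38.p14 (the most upstream listed where there are several), 5′ to 3′ on the strand of the gene. Capitals mark ACGTG or its reverse complement CACGT. The windows are chr2:74833877-74834126 on the plus strand for HK2, chr3:48556804-48557053 on the minus strand for PFKFB4, chr11:18394313-18394562 on the plus strand for LDHA and chr12:21657843-21658092 on the minus strand for LDHB.
HK2: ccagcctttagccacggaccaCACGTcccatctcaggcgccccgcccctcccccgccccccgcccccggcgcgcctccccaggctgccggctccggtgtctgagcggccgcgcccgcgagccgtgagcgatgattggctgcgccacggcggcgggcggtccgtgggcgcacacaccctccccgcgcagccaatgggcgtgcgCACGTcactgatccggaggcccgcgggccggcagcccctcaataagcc
PFKFB4: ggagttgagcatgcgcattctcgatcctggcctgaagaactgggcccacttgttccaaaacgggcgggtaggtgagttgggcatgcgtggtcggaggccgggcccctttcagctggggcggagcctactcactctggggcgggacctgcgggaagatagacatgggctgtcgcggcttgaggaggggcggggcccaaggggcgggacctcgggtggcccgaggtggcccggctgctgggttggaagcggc
LDHA: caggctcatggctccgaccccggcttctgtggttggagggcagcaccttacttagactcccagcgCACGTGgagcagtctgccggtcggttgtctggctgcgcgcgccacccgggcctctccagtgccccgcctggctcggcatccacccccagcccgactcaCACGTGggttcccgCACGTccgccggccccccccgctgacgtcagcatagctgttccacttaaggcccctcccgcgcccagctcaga
LDHB: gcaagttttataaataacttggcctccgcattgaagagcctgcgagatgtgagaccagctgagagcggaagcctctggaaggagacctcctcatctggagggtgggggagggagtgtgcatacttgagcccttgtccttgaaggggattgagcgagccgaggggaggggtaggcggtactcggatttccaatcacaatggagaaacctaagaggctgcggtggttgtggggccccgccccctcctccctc
Counting both strands, the LDHA window holds 5 matches, of which 4 form 2 palindromes CACGTG, and the HK2 window holds 2. The PFKFB4 and LDHB windows hold 0 of these matches, but the PFKFB4 and HK2 windows each hold 1 match of the other HIF core, GCGTG, and the annotated PFKFB4 gene reaches further upstream than the start used here. Over all members, 38 of 44 matched the promoter table, with 66 windows, of which 24 (36.4%) held ACGTG on either strand, against 18.5% of all 35116 windows. GCGTG, searched on both strands, was in 28.8% of member windows and 32.2% of all windows. The palindrome CACGTG, which contains ACGTG, was in 13.6% of member windows and 6.34% of all windows. A match describes letters and not a bound site, and several genes have more than 1 window.

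The control of phosphofructokinase held the lowest log2 fold change of the 41 tested members. PFKFB4 (ENSG00000114268, chromosome 3, 48517684 to 48563136), a hypoxia-inducible kinase and phosphatase of fructose 2,6-bisphosphate, stood at 2.07, 1.59 and 1.35 CPM in beta-sitosterol cells and 6.899, 5.43 and 6.78 CPM in DMSO cells. The gap between the groups was wider than the range within either (log2 fold change -1.93 ± 0.22, edgeR adjusted p = 4.74e-04). PFKFB3 (ENSG00000170525, chromosome 10, 6144921 to 6326637), the isoform with the strongest kinase activity, stood at 17.8, 15.1 and 16.5 CPM in beta-sitosterol cells and 31.2, 23.4 and 36.2 CPM in DMSO cells. It fell too, without overlap (log2 fold change -0.88 ± 0.18, edgeR adjusted p = 0.00513). PFKFB2, the heart isoform, stood at 4.82, 5.297 and 5.38 CPM in beta-sitosterol cells and 6.72, 4.83 and 6.004 CPM in DMSO cells and was not called (log2 fold change -0.18 ± 0.18, edgeR adjusted p = 0.449).

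PFKFB4 was lower relative to PFKFB3 in treated cells. The log2 ratio of PFKFB3 to PFKFB4 counts was 3.11, 3.25 and 3.62 in beta-sitosterol cells and 2.18, 2.11 and 2.42 in DMSO cells, a difference of 1.09 ± 0.18 (SE; exact permutation p = 0.1, the smallest possible). In shares of PFKFB TPM, PFKFB4 took 12.9%, 10.7% and 8.77% in beta-sitosterol cells and 23.4%, 24.4% and 21.8% in DMSO cells. PFKFB3 took 54.1%, 49.9% and 52.6% in beta-sitosterol cells and 51.6%, 51.6% and 56.9% in DMSO cells, with overlap. PFKFB4 was a low transcript per length, at 0.36 ± 0.084 TPM in beta-sitosterol cells and 1.69 ± 0.57 TPM in DMSO cells (SD, n = 3 each).

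At the entry to the mitochondria, no gene of the pyruvate dehydrogenase switch was called with all libraries. PDK1, a kinase that shuts the complex and a known HIF target, stood at 23.3, 25.5 and 24.04 CPM in beta-sitosterol cells, above each DMSO value of 19.6, 23.2 and 15.8 CPM (log2 fold change 0.31 ± 0.16, edgeR adjusted p = 0.148). PDK3, a related kinase, stood at 6.69, 7.49 and 7.49 CPM in beta-sitosterol cells and 5.96, 5.68 and 4.96 CPM in DMSO cells, also without overlap (log2 fold change 0.38 ± 0.16, edgeR adjusted p = 0.0828). PDHA1, the subunit those kinases phosphorylate, stood at 170.4, 171 and 179 CPM in beta-sitosterol cells and 138, 180.4 and 128 CPM in DMSO cells (log2 fold change 0.22 ± 0.15, edgeR adjusted p = 0.258). Without DMSO replicate 2 these 3 genes were called higher, at 0.45, 0.40 and 0.38 (edgeR adjusted p = 0.00807, 0.0482 and 0.00163). On log2(TPM + 1) without that library they were -0.0085, -0.057 and -0.089. The median of all genes was -0.36 on that scale, so each of the 3 lay above it.

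Among HIF and its sensors 1 of 7 genes was called (14.3%, against 40.8% of all tested genes), ARNT, the constant partner of HIF1A. Without DMSO replicate 2, 5 were called, all lower (71.4%, against 56.6% of all tested genes called and 30.3% lower). ARNT stood at 37.8, 39.8 and 42.1 CPM in beta-sitosterol cells and 50.4, 76.9 and 50.05 CPM in DMSO cells, with DMSO replicate 2 far above the other libraries (log2 fold change -0.57 ± 0.18, edgeR adjusted p = 0.0361). Without that library it was called at -0.34 (edgeR adjusted p = 0.0119). It was not called without beta-sitosterol replicate 1, 2 or 3 (edgeR adjusted p = 0.127, 0.108 and 0.0876) or with the trend on gene length removed. HIF1A (ENSG00000100644, chromosome 14, 61695513 to 61748258) was also highest in that library, with 139.6, 130.4 and 128 CPM in beta-sitosterol cells and 165, 323 and 129 CPM in DMSO cells. Its log2 fold change was -0.63 ± 0.30 with DMSO replicate 2 (edgeR adjusted p = 0.121) and -0.16 without it (edgeR adjusted p = 0.217). Without DMSO replicate 3 HIF1A was called lower (edgeR adjusted p = 0.0329), as it was with all libraries and no filter on low counts or on log2(TPM + 1) with limma.

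EGLN1, EGLN2, HIF1AN and VHL, which restrain HIF, were called lower without DMSO replicate 2. With all libraries they were not called in the edgeR fit used throughout. EGLN1, the main oxygen-sensing hydroxylase, stood at 29.4, 26.4 and 24.7 CPM in beta-sitosterol cells and 40.6, 28.4 and 39.8 CPM in DMSO cells (log2 fold change -0.44 ± 0.17, edgeR adjusted p = 0.0644). EGLN2, a related hydroxylase, stood at 5.09, 4.503 and 6.15 CPM in beta-sitosterol cells and 9.95, 5.46 and 11.4 CPM in DMSO cells (log2 fold change -0.77 ± 0.28, edgeR adjusted p = 0.0537). In both genes DMSO replicate 2 lay among the treated values, and with all libraries EGLN2 was called lower with DESeq2, with library totals in place of TMM factors or with no filter on low counts. In GENCODE v29, 30.6% of EGLN2 exonic bases are shared with other genes on the same strand, among them the read-through gene RAB4B-EGLN2. HIF1AN, the hydroxylase that blocks the coactivator site of HIF, stood at 83.4, 84.3 and 90.5 CPM in beta-sitosterol cells and 108, 94.9 and 111 CPM in DMSO cells, without overlap (log2 fold change -0.28 ± 0.12, edgeR adjusted p = 0.0857). VHL, which binds hydroxylated HIF1A, stood at 80.9, 74.8 and 74.7 CPM in beta-sitosterol cells and 101, 74.7 and 94.6 CPM in DMSO cells (edgeR adjusted p = 0.216).

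Without DMSO replicate 2 the log2 fold change was -0.59 for EGLN1, -1.03 for EGLN2, -0.35 for HIF1AN and -0.36 for VHL (edgeR adjusted p = 4.33e-04, 8.06e-05, 0.00354 and 0.00411). EGLN3, the HIF-induced member of the family, was near the limit of detection, at 30, 20 and 20 counts in beta-sitosterol libraries and 14, 20 and 30 in DMSO libraries, and was not called (edgeR adjusted p = 0.397).

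**Figure D4:**
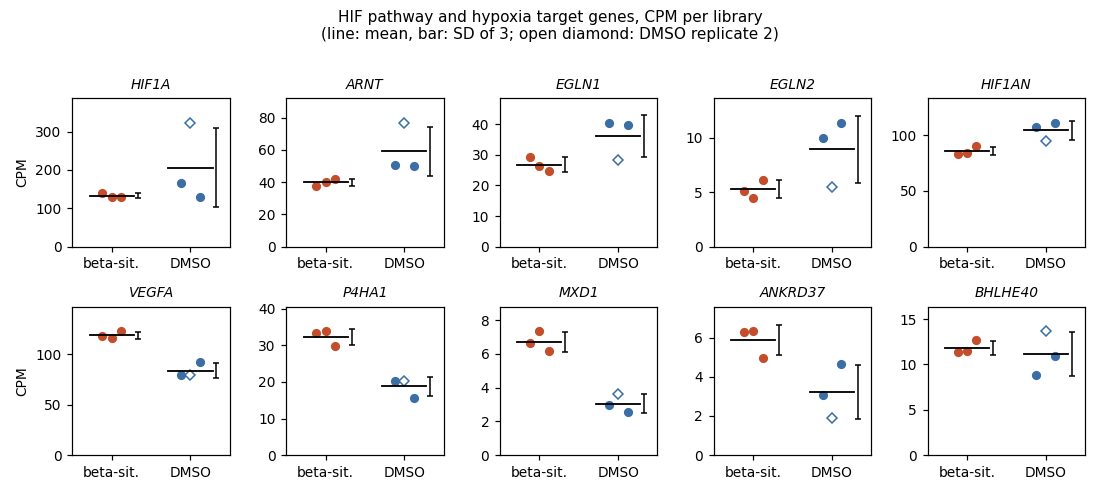
CPM (vertical axes, from 0) of 10 HIF pathway and hypoxia target genes in each library, beta-sitosterol left and DMSO right, with mean and SD of 3. The open diamond, DMSO replicate 2, is the highest of the 6 values for HIF1A, ARNT and BHLHE40 and the lowest DMSO value for EGLN1, EGLN2, HIF1AN, VEGFA and ANKRD37.

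Hypoxia target genes outside glycolysis held 3 genes called higher and 0 called lower, of 7 tested. Their share called, 42.9%, was near the 40.8% of all tested genes, and on log2(TPM + 1) 1 of them was called. MXD1 (ENSG00000059728, chromosome 2, 69915109 to 69942945), a repressor that competes with MYC for its partner MAX, stood at 6.65, 7.34 and 6.15 CPM in beta-sitosterol cells and 2.96, 3.64 and 2.54 CPM in DMSO cells (log2 fold change 1.14 ± 0.19, edgeR adjusted p = 0.00234). P4HA1, a subunit of the hydroxylase that matures collagen, stood at 33.3, 33.8 and 29.7 CPM in beta-sitosterol cells and 20.3, 20.3 and 15.7 CPM in DMSO cells (log2 fold change 0.78 ± 0.15, edgeR adjusted p = 0.00365). VEGFA, the angiogenic growth factor, stood at 118, 116 and 123 CPM in beta-sitosterol cells and 79.97, 79.4 and 92.5 CPM in DMSO cells (log2 fold change 0.50 ± 0.12, edgeR adjusted p = 0.00896). In these 3 genes each treated library lay above each DMSO library. The VEGFA call was lost without beta-sitosterol replicate 3 (edgeR adjusted p = 0.0547). On log2(TPM + 1) without DMSO replicate 2 VEGFA was -0.0025, where the median of all genes was -0.36.

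VEGFB and ANKRD37 lay at the threshold. VEGFB, a relative of VEGFA, stood at 46.9, 41.8 and 40.6 CPM in beta-sitosterol cells and 29.5, 26.7 and 38.3 CPM in DMSO cells (log2 fold change 0.45 ± 0.16, edgeR adjusted p = 0.0506). ANKRD37, a small ankyrin-repeat gene induced by HIF, stood at 6.28, 6.32 and 4.98 CPM in beta-sitosterol cells and 3.08, 1.91 and 4.68 CPM in DMSO cells (log2 fold change 0.86 ± 0.30, edgeR adjusted p = 0.051). Neither gene overlapped between groups. Both were called higher without DMSO replicate 2 (edgeR adjusted p = 0.0324 for VEGFB and 0.0226 for ANKRD37) and without DMSO replicate 3 (0.00524 and 0.0073), and with DESeq2, limma-voom or RLE factors in all libraries. In GENCODE v29, 35.2% of ANKRD37 exonic bases overlap a gene on the opposite strand, and whether the counting used strand is not stated in those sources.

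NDRG1, a stress-induced gene, stood at 6.35, 6.55 and 8.04 CPM in beta-sitosterol cells and 6.25, 5.65 and 6.61 CPM in DMSO cells and was not called (edgeR adjusted p = 0.424). BHLHE40, a circadian repressor, stood at 11.3, 11.5 and 12.7 CPM in beta-sitosterol cells and 8.87, 13.6 and 10.9 CPM in DMSO cells and was not called (edgeR adjusted p = 0.717). CA9, a carbonic anhydrase widely used as a marker of hypoxia, had 6 counts over the 3 beta-sitosterol libraries and 0 over the 3 DMSO libraries, too few for a fold.

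Further genes of these pathways, 96 in 6 lists, held 67 tested genes, of which 16 were higher and 10 lower (38.8%, against 40.8% of all tested genes). Among 10 tested carriers of glucose and monocarboxylates 3 were higher and 0 lower (30%, against the same 40.8%). They were MPC2 and MPC1, the subunits that carry pyruvate into mitochondria, and BSG, a chaperone of the lactate carriers, at 0.60 ± 0.16 (edgeR adjusted p = 0.0168). MPC2 stood at 49.97, 54.6 and 45.7 CPM in beta-sitosterol cells and 16.3, 14.8 and 12.01 CPM in DMSO cells (log2 fold change 1.80 ± 0.15, edgeR adjusted p = 1.65e-04). MPC1 stood at 98.6, 103 and 96.2 CPM in beta-sitosterol cells and 44.2, 39.8 and 39.8 CPM in DMSO cells (log2 fold change 1.27 ± 0.11, edgeR adjusted p = 1.83e-04). In both subunits each treated library lay far above each DMSO library. The pyruvate dehydrogenase complex had 0 of 7 tested genes higher and 2 lower (28.6%, against the same 40.8%). They were DLAT, its acetyl transfer subunit, at -0.42, and PDP1, its phosphatase, at -0.45 (edgeR adjusted p = 0.0139 and 0.0336). Both calls were lost without beta-sitosterol replicate 1, 2 or 3 (edgeR adjusted p = 0.08, 0.0694 and 0.0799 for DLAT and 0.0967, 0.122 and 0.124 for PDP1), and that of PDP1 without DMSO replicate 1 (0.0879). The BSG call was lost without DMSO replicate 1 (edgeR adjusted p = 0.0589) or beta-sitosterol replicate 1, 2 or 3 (0.065, 0.0556 and 0.0619).

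Side enzymes and minor isoforms of glycolysis were higher in 3 of 11 tested and lower in 0 (27.3%, against 40.8% of all tested genes). FBP1, which runs the phosphofructokinase step in reverse, had 60, 66 and 73 counts in beta-sitosterol libraries and 4, 6 and 12 in DMSO libraries (log2 fold change 3.43 ± 0.37, edgeR adjusted p = 3.48e-04). It was low in either group and, like ENO2, passed the filter on low counts only through the treated group, so it had to differ to be tested. ENO3, the muscle enolase, stood at 30.96, 30.6 and 33.5 CPM in beta-sitosterol cells and 13.3, 12.1 and 15.2 CPM in DMSO cells (edgeR adjusted p = 4.05e-04). PGM1, which links glucose and glycogen, was higher by 0.61 ± 0.12 (edgeR adjusted p = 0.00539). In the pentose phosphate pathway 2 of 7 genes were higher and 0 lower (28.6%, against the same 40.8%). TALDO1, transaldolase, was among them at 0.80 ± 0.18 (edgeR adjusted p = 0.00733).

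Of 8 tested genes of the HIF degradation complex, its coactivators and related regulators 4 were higher and 2 lower (75%, against 40.8% of all tested genes). The HIF subunits of this list, EPAS1, HIF3A and ARNT2, had at most 3 counts in any library and were not tested. ELOC, ELOB and RBX1, partners of VHL in the ubiquitin ligase, were higher by 1.19, 0.74 and 0.99, and P4HTM, a membrane hydroxylase, by 0.81 (edgeR adjusted p = 0.00157, 0.0485, 0.0071 and 0.0186). The calls of ELOB and P4HTM were lost without DMSO replicate 1 (edgeR adjusted p = 0.131 and 0.0618). They were also lost without beta-sitosterol replicate 1, 2 or 3 (edgeR adjusted p = 0.129, 0.0836 and 0.129 for ELOB, and 0.0637, 0.0516 and 0.0608 for P4HTM). CREBBP, an acetyltransferase that HIF recruits, stood at 105, 104 and 112 CPM in beta-sitosterol cells, against 188, 337 and 221 CPM in DMSO cells (log2 fold change -1.22 ± 0.21, edgeR adjusted p = 0.00232). EP300, its paralog, stood at 103, 99.4 and 102 CPM in beta-sitosterol cells, against 168, 319.6 and 196 CPM in DMSO cells (log2 fold change -1.17 ± 0.22, edgeR adjusted p = 0.00399). DMSO replicate 2 was the highest library for both, and without it their log2 fold changes were -0.94 and -0.85.

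Further hypoxia target genes split, with 4 higher and 6 lower of 24 tested (41.7%, against 40.8% of all tested genes). CXCR4, the chemokine receptor of B cell homing, GBE1, the glycogen branching enzyme, and FUT11, a fucosyltransferase, stood at -1.22 ± 0.11, -0.91 ± 0.13 and -0.66 ± 0.15 on the log2 scale (edgeR adjusted p = 1.81e-04, 0.00105 and 0.00724). JMJD6, a nuclear oxygenase, FAM162A, a mitochondrial protein, and RRAGD, a GTPase of nutrient sensing, stood at 0.73 ± 0.13, 0.75 ± 0.14 and 0.76 ± 0.16 (edgeR adjusted p = 0.00268, 0.00419 and 0.00587). HMOX1, haem oxygenase and also an oxidative stress gene, was low in both groups, at 1.36, 1.48 and 1.85 CPM in beta-sitosterol cells and 0.29, 0.13 and 0.29 CPM in DMSO cells (edgeR adjusted p = 8.47e-04). It too passed the filter only through the treated group.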

How the data were processed

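The authors deposited raw counts of reads for each gene, and TPM made from them, scaled for length and library. Per the submitters' processing notes, StringTie 2.2.1, featureCounts 2.0.1, STAR 2.7.10 and fastp 0.23.2 were used with GRCh38, their roles not being named. The annotation, the strand setting and the handling of reads with several matches are likewise not named. Of 65807 rows, 61 repeats of a symbol were dropped, of which 2 held counts.

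Counts were fitted in R 4.3.3 with edgeR 4.0.16 (filterByExpr, TMM, two-sided quasi-likelihood F test, treatment as the only term, Benjamini-Hochberg). The SE divides the size of the log2 fold change by the root of F. The p-values measure the spread between these libraries, which may be technical; log2 CPM had a median SD of 0.086 in beta-sitosterol cells and 0.27 in DMSO cells. On simulated counts the test recovered 69% of changes of 1 log2 unit. Those counts had the same spread set for both groups, so the check does not cover the unequal spread seen here. Paralog ratios were tested by exact permutation of the 6 libraries. Alternatives were DESeq2 1.42.0, limma 3.58.1 (limma-voom, log2(TPM + 1) and log2(TPM + 0.1)), RLE factors, library totals, other filters, a replicate block, removal of a gene length trend, and each library left out.

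The members and lists were chosen with earlier results of these data known. Values per library are given for members past the threshold, for those whose call changed when a library was left out and for 9 genes central to their roles. In the further lists, up to 3 called genes in each direction are named by smallest p. ELOB, RRAGD and the library values of other members were added after their values were seen. 1 called gene of the further lists is not reported here.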

Additional observations from a re-analysis of the deposited data

How the results depend on the processing

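All 17 called members kept their direction and call with RLE factors, library totals, no filter on low counts, DESeq2, limma-voom, the replicate block and without DMSO replicate 2, and HK2, PFKP, PFKFB4 and MXD1 did so in all 17 alternatives. Leaving out 1 library gave 1501 to 3091 genes higher and 1593 to 3549 lower over all genes, and 4 to 14 members higher and 5 to 17 lower. By role the range was 0 to 1 carriers higher and 0 to 1 lower, 2 to 6 enzymes higher and 3 to 9 lower, 0 to 3 PFKFB and pyruvate dehydrogenase genes higher and 2 lower throughout, 0 HIF and sensor genes higher and 0 to 5 lower, and 2 to 5 target genes higher and 0 lower. Of the further genes 13 to 20 were higher and 5 to 16 lower. The within-library log2 ratios ranged from -0.97 to -0.93 for LDHA over LDHB, -1.16 to -0.86 for HK2 over HK1, -1.59 to -1.05 for SLC2A1 over SLC2A3, 0.943 to 1.198 for PFKFB3 over PFKFB4, 0.16 to 0.50 for SLC16A3 over SLC16A1 and 2.21 to 2.54 for ENO2 over ENO1. Hypoxia target genes called higher were 5 with RLE factors, library totals, no filter, DESeq2, limma-voom or the block; HIF and sensor genes called lower were 2 with library totals, DESeq2 or the block and 3 with no filter. On log2(TPM + 1), log2(TPM + 0.1) and log2(TPM + 1) with DMSO replicates 1 and 3 alone (the last chosen after seeing the data), genes called higher were 713, 691 and 1215, members 1, 2 and 1, carriers 0, 0 and 0, enzymes 0, 1 and 0, target genes 1, 1 and 1, and further genes 5, 5 and 8. Genes called lower were 6470 on the last scale, with 37 further genes and 23 members; members were 5 on log2(TPM + 1), carriers 0, 0 and 2, enzymes 2, 2 and 12, HIF and sensor genes 2, 2 and 6 on the 3 scales, and PFKFB and pyruvate dehydrogenase genes 1 on log2(TPM + 1). Of all calls, 46.5% were higher on CPM, and 24.3%, 23.5% and 15.8% on those scales; beyond the shift of the median of all genes (-0.19, -0.26 and -0.36) the cause was not tested.

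The sign of 19 members reversed in some alternative, 15 of them genes not called with all libraries. On the last TPM scale the values were -0.037 for TPI1, -0.15 for ENO1, -0.073 for LDHB, -0.0025 for VEGFA, -0.099 for SLC16A3, -0.39 for PFKL, -0.54 for PFKM, -0.0085 for PDK1, -0.057 for PDK3, -0.089 for PDHA1, -0.015 for EGLN3, -0.11 for VEGFB, -0.16 for NDRG1 and -0.19 for BHLHE40. On log2(TPM + 1) and log2(TPM + 0.1) they were -0.015 and -0.015 for SLC16A3, -0.12 and -0.11 for PFKM, -0.022 and -0.022 for PDHA1, -0.047 and -0.080 for NDRG1, and -0.13 and -0.15 for BHLHE40. With the gene length trend removed they were 0.16 for HK1, 0.059 for GPI and -0.14 for BHLHE40, and with RLE factors 0.0082 for SLC16A1. When 1 DMSO library was left out, values ranged from -0.054 (without replicate 3) to 0.057 (without 1) for SLC16A1 and from -0.057 (without 1) to 0.25 (without 2) for BHLHE40. Values without replicate 2 and without replicate 3 were -0.095 and 0.29 for PFKM, -0.43 and 0.14 for ALDOA, and -0.24 and 0.10 for PGK1. On the 3 TPM scales the values include the shift of the median of all genes (-0.36 on the last, -0.19 on log2(TPM + 1) and -0.26 on log2(TPM + 0.1)). Beyond that shift the cause of these reversals was not tested.

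The replicate numbers are shared by the groups, and no label states a pairing. Deviations of same-numbered libraries correlated weakly, at 0.0388, 0.101 and 0.154, yet every library correlated best with its own number. Whether the libraries are paired is therefore not settled. With the number as a block, 2306 genes were higher and 2437 lower, and 11 members higher and 9 lower. At this depth no difference could be tested for CA9, ADM and P4HA2.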
